A study of Saccharomyces cerevisiae with 20 samples.

Results

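The mitochondrial ribosome of budding yeast was followed through the transcripts of its nuclear genes, in a wild-type strain and in a strain without SET1, along a synchronous cell cycle. The genes were taken by name: every row whose standard name begins with MRPL (large subunit) or MRPS (small subunit) followed by a digit, with a mean of at least 10 reads over the 20 libraries. The annotation holds 43 such names and 42 of them met the rule, 33 for the large subunit and 9 for the small subunit, among 6532 features in all. The remaining name, MRPL19 (YNL185C), shares a row of the tables with YNL184C and is described apart. The lowest mean count of a member was 25.7 (MRPL3), so no gene stood near the minimum on either side.

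The strains were W303a, the wild type (WT), and delta_set1, written set1Δ here. SET1 encodes a histone methyltransferase, the enzyme within COMPASS that modifies a lysine in the tail of histone H3. Both strains grew in rich glucose medium at 30 °C and were arrested in G1 with 5 µg/ml of the mating pheromone α-factor. Each gave 1 library from an asynchronous culture and 9 libraries from 0 to 120 min after release, every 15 min, which makes 10 libraries per strain. The labels name no other difference between the groups. The assay, PAT-seq, reads the 3′ ends of polyadenylated RNA and gives per gene a read count and, from reads that run into the poly(A) tail, a mean tail length. Nothing in the labels says that the time points came from more than 1 culture per strain, so the p-values measure the spread between time points and not between cultures. In such bulk RNA, less RNA per cell and fewer cells that hold it cannot be told apart.

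The shallowest library held 476565 reads (set1Δ, 30 min) and the deepest 2413354 (WT, 75 min), of which the 42 genes took between 1186 and 6762. SET1 itself lay at 44.3 ± 14.7 CPM (reads scaled to library size) in WT and 9.78 ± 2.82 in set1Δ (SD, n = 10 each), a log2 difference of −2.16 ± 0.13 (SE), and was lower at 10 of 10 time points. In CPM taken here without scaling factors, the 5 markers of mating type a summed to at least 1236 in every WT library and 438 in every set1Δ library. The 4 markers of the opposite type summed to at most 34.4 CPM in WT and 75.8 CPM in set1Δ. FUS1, induced by pheromone, was highest at 0 min after release and the histone gene HTA1 at 30 min in both strains. SIC1 and EGT2, markers of the passage from mitosis to G1, were highest at 75 min in both strains. Beside these highest libraries the strains were not alike. HTA1 stood at 696.8 CPM at 45 min in WT and at 337.3 CPM in set1Δ. At 60 min SIC1 stood at 71.4 CPM in WT and 168.9 in set1Δ, and EGT2 at 4.76 and 7.70 CPM. The G1 cyclin gene CLN2 differed in its highest library, 90 min in WT (325.8 CPM) and 15 min in set1Δ (534.8 CPM). It also stood at 231.9 CPM at 30 min in WT and at 338.5 CPM at 90 min in set1Δ. FUS1 stayed between 78.4 and 161.9 CPM from 15 min on in WT and between 3.82 and 23.8 CPM in set1Δ. The strain tests set equal times side by side, and whether these were equal stages of the cycle was not tested. The proportion of tailed reads (those that run into a poly(A) tail) varied between libraries, from 91.7% in WT at 30 min to 51.3% in WT at 105 min and 32.2% in WT at 120 min, and lay between 52.4% and 76.3% in set1Δ. The scaling factor of the WT library at 120 min was 0.621, the lowest of the 20.

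Mitochondrial ribosomes translate the few proteins encoded in mitochondrial DNA, most of them core subunits of the respiratory chain and of ATP synthase. Their RNA comes from that DNA, but nearly all of their proteins are encoded in the nucleus, made in the cytosol and imported. In yeast, many of these messages are bound by Puf3, a Pumilio-family protein that recognises UGUANAUA in the 3′ untranslated region, and in glucose Puf3 is known for promoting deadenylation and decay of its targets. The sequence after the stop codon was therefore described first for the 42 genes, then the levels, and the length of the tail was described as well, after the levels.

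The motif UGUANAUA (N, any base; sense strand) lay within 300 bases after the stop codon of 42 of 42 members, and within 200 bases of it in the same number. Of 4885 protein-coding genes tested for level, 885 had it in the same window, or 18.1%. On the opposite strand of the window it was found for 9 of 42 members (21.4%), near the 16.8% of all genes tested. Among the other 33 mitochondrial ribosomal proteins, whose names do not begin with MRPL or MRPS and a digit, 32 had the motif and RSM22 did not. Of the 27 nuclear genes of oxidative phosphorylation with coding coordinates, 4 had it (14.8%), and of 137 cytosolic ribosomal protein genes, 12 (8.76%). A second motif was searched in the 300 bases before the start codon: AAAATTTT, which reads the same on both strands, was present for 2 of 42 members (4.76%) and 10.5% of the genes tested. A match is a description of the letters, and binding was not measured.

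The sites below belong to the genes on which the later results turn, the highest and lowest levels, the longest and shortest tails and the differences between strains and over time. Each is read from the R64 reference genome (RefSeq), 5′ to 3′ as RNA, with the motif in capitals and up to 8 bases on each side.
MRPL36, first site: aacagccuUGUAUAUAccgcaaca
MRPL36, second site: ucuacauaUGUAUAUAuugacaac
MRPL24, first site: uuuuccccUGUAUAUAaaaaagca
MRPL24, second site: uaucuguuUGUACAUAuguaggua
MRPL31: auuucaucUGUAUAUAguuuaauc
MRPL35: uaguauccUGUACAUAuaaaauaa
MRPL8: uauucccuUGUAAAUAuauagaug
MRPL28, first site: ucuccugcUGUAAAUAacugauga
MRPL38: uaaccaccUGUAUAUAuugcuuaa
MRPL3, first site: ugccauuuUGUAGAUAgagaacuc
MRPS16, first site: guauauguUGUAUAUAuguuuuac
MRPS17: cuacacucUGUAAAUAuauacaac
MRPS18: uauauucgUGUAAAUAauucgauu
MRPS35: uuauuacuUGUACAUAaaauauuc
In R64 coordinates, the printed sites of MRPL36 are at chrII:483853-483876 and chrII:483817-483840 on the minus strand. Those of MRPL24 lie on the plus strand, at chrXIII:650859-650882 and chrXIII:650883-650906. The site of MRPL31 is at chrXI:185228-185251 (minus), that of MRPL35 at chrIV:1111713-1111736 (plus) and that of MRPL8 at chrX:315717-315740 (minus). The site of MRPL28 is at chrIV:1386540-1386563, that of MRPL38 at chrXI:131138-131161 and that of MRPL3 at chrXIII:323057-323080, all on the plus strand. For the small subunit, the sites of MRPS16 (chrXVI:528884-528907) and MRPS17 (chrXIII:636220-636243) lie on the minus strand, and those of MRPS18 (chrXIV:58863-58886) and MRPS35 (chrVII:830215-830238) on the plus strand. The annotation used gives coding ends and no untranslated regions, so whether a site lies inside the transcript was not measured.

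The 42 members held 53 sites: 31 genes had 1 site and 11 had 2. The fifth base was A in 23 sites (UGUAAAUA), U in 15 (UGUAUAUA), C in 13 (UGUACAUA) and G in 2 (UGUAGAUA). A cytosine stood 2 bases before the motif in 35 of 53 sites (66.0%), for example in those printed for MRPL35, MRPL8, MRPL38, MRPS18 and MRPS35, but not in those of MRPL31 and MRPS17. The first site began between 8 bases (MRPS5) and 139 bases (MRPS9) after the stop codon, with a median of 54.5, and it lay within 100 bases in 38 genes. MRPL19, in the combined row, had 3 sites.

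The level of the members spanned an order of magnitude. Levels are given as CPM of 3′-end reads and are not divided by gene length, since a transcript is read at its end. MRPL36, which encodes a protein of the bacterial L31 family at the base of the large subunit's central protuberance, had the highest mean, 223.6 ± 60.4 CPM in WT and 231.2 ± 28.5 in set1Δ (SD, n = 10 each). MRPL27, a large-subunit protein specific to mitochondria, followed at 198.0 ± 32.3 and 172.9 ± 24.5 CPM. MRPS16, the counterpart of bacterial S16, lay at 145.8 ± 46.6 and 145.1 ± 10.4 CPM, and MRPL35, another protein specific to mitochondria, at 130.2 ± 78.8 and 95.3 ± 18.2 CPM. The lowest were MRPL3 with a mean of 16.1 CPM over all 20 libraries, MRPL17 with 17.1, MRPL25 with 18.2 and MRPL22, the counterpart of bacterial L22, with 20.0. MRPL36, MRPL27, MRPS16 and MRPL35 lay above the 4 lowest genes in every library. The neighbours MRPL3, MRPL17, MRPL25 and MRPL22 overlapped in their ranges over libraries. The median member lay at 46.8 CPM, that of all 5060 genes tested at 50.7 CPM, that of the other mitochondrial ribosomal proteins at 68.9 CPM and that of the cytosolic ribosomal proteins at 1500 CPM. Across the 42 members the mean CPM of WT and set1Δ had a Pearson r of 0.98, over libraries of the same 2 series of samples. The combined row of MRPL19 and YNL184C lay at 21.6 ± 5.55 CPM in WT and 23.0 ± 5.05 in set1Δ.

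Few members differed in level between the strains. No member was higher in set1Δ and 2 were lower, MRPL24 and MRPL31, both of the large subunit, by edgeR's quasi-likelihood test with time point as a factor. Over all genes tested, 8.44% were called higher and 10.5% lower, so a share of 2 in 42 was below the background. At an unadjusted p below 0.05, 0 members were higher and 4 lower, while 15.7% and 18.1% of all genes were. DESeq2's Wald test called 0 higher and 2 lower, MRPL24 but not MRPL31 among them. The share of all genes called by that test is not given here, so its counts stand without a background. The median log2 difference of the members was −0.11, and −0.01 over all genes. The fitted difference was below 0 for 30 of 42 members (71.4%) and for 51.5% of all genes.

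MRPL24, which encodes the counterpart of bacterial L28, ranged in WT from 20.0 CPM (120 min) to 52.7 (90 min) with a median of 30.5. In set1Δ it ranged from 9.55 CPM (30 min) to 29.6 (90 min), with a median of 20.1. The ranges overlapped, and the gene was lower in set1Δ at 9 of 10 time points, all but 120 min. The log2 difference was −0.66 ± 0.16 (SE; edgeR adjusted p = 0.00825), and it kept an adjusted p below 0.05 when any of the 10 time points was left out, at most 0.030. MRPL31, a protein without a bacterial counterpart, ranged from 26.7 to 57.6 CPM in WT (median 42.9) and from 27.1 to 44.7 CPM in set1Δ (median 32.5). It was lower at 7 of 10 time points, with a log2 difference of −0.39 ± 0.13 (edgeR adjusted p = 0.0474). That call held in 3 of the 10 fits that left out a time point, with adjusted p up to 0.131, and was lost with DESeq2 size factors, without a filter on low counts and without a term for time. MRPL44, also of the large subunit, lay just beyond the threshold at −0.35 ± 0.12 (edgeR adjusted p = 0.0513).

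Without the 105 and 120 min libraries, 6 members were lower and 13.9% of all genes. These were MRPL24 (−0.81), MRPL38 (−0.74), MRPL10 (−0.53), MRPL31 (−0.47), MRPL16 (−0.47) and MRPL44 (−0.45), all of the large subunit, with edgeR adjusted p between 0.001 and 0.0393. MRPL38, the counterpart of bacterial L14, and MRPL10, that of L15, had differences of −0.50 and −0.40 with all libraries, with edgeR adjusted p of 0.149 and 0.116.

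**Figure D1:**
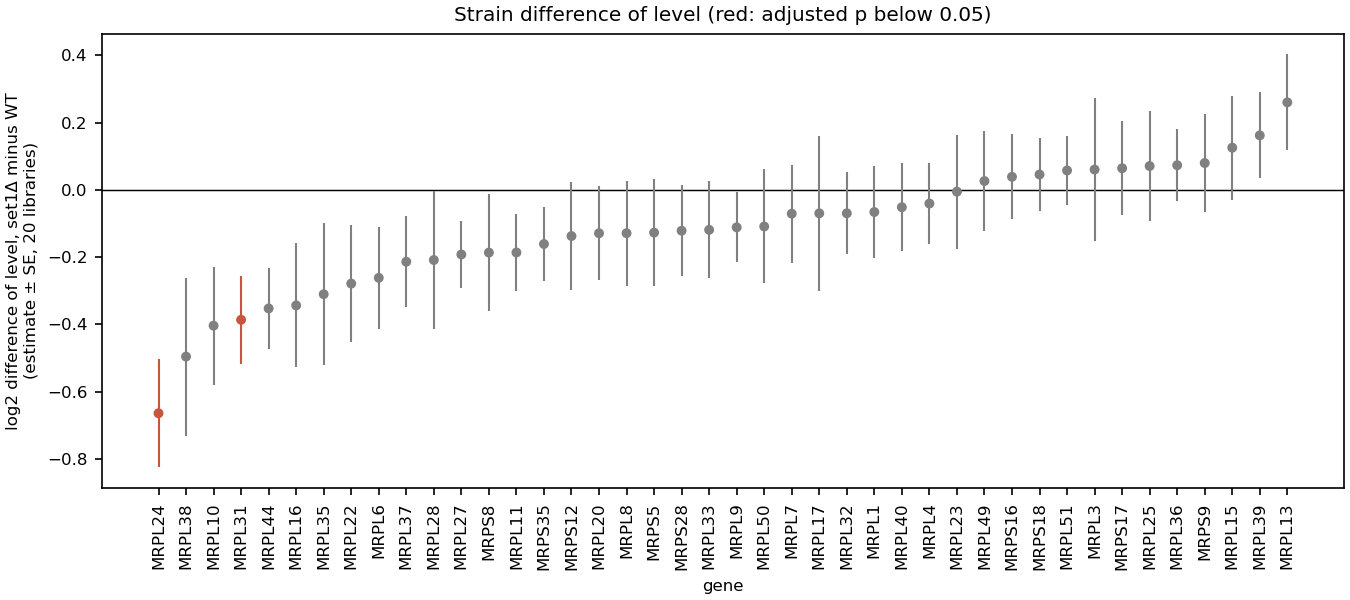
Log2 difference of level between strains for each of the 42 genes (vertical axis, set1Δ minus WT, edgeR estimate ± SE from 20 libraries), ordered by value; red marks an adjusted p below 0.05. MRPL24 at −0.66 and MRPL31 at −0.39 are red, and 30 of 42 estimates lie below 0.

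Over time, 16 of 42 members changed in WT (38.1%), against 39.1% of all genes, so the members were called about as often as other genes. The test was edgeR's quasi-likelihood F-test on a natural spline with 5 degrees of freedom in the libraries after release. In set1Δ 1 member changed, MRPS18 (2.38%), against 15.7% of all genes. At an unadjusted p below 0.05 the counts were 19 in WT and 6 in set1Δ, while 49.4% and 30.1% of all genes had such a p. The difference between the lowest and the highest library of a gene had a median over members of 1.24 on the log2 scale in WT and 0.90 in set1Δ, and over all genes of 1.39 and 1.04. In WT 12 of 33 large-subunit genes and 4 of 9 small-subunit genes were called.

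The genes with the smallest p in WT rose late. MRPL35 (edgeR adjusted p = 2.66e-05) was read at 126.1 CPM at 0 min, 77.9 at 15 min, 68.6 at 30 min, 113.9 at 45 min, 102.1 at 60 min, 91.9 at 75 min, 101.6 at 90 min, 182.5 at 105 min and 336.3 at 120 min. Its level in set1Δ stayed between 66.5 and 123.1 CPM. The library at 120 min alone lay far above the others in WT. MRPL8, the counterpart of bacterial L17 (adjusted p = 1.52e-05), climbed in WT from 43.5 CPM at 30 min through 95.2 at 60 min, 133.2 at 90 min and 166.6 at 105 min to 247.5 at 120 min. In set1Δ it ranged from 72.0 to 132.3 CPM, highest at 75 min. MRPL28 (adjusted p = 0.000168) went from 35.8 CPM at 30 min to 170.9 at 120 min in WT, and in set1Δ between 25.97 CPM in the asynchronous culture and 87.2 at 75 min. MRPL37 (adjusted p = 0.000133) rose from 39.9 to 177.6 CPM between the same WT libraries. These 4 large-subunit genes had their lowest WT library after release at 30 min and their highest at 120 min, the libraries with the highest and the lowest share of poly(A) reads.

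Among small-subunit genes, MRPS18, the counterpart of bacterial S11, rose in WT from 48.9 CPM at 0 min to 194.2 at 120 min (edgeR adjusted p = 0.000141). In set1Δ it rose from 59.2 CPM at 30 min to 135.6 at 120 min (adjusted p = 0.0122), with higher values at 105 and 120 min than at any earlier time in that strain. That call was lost in tailed reads and without the 105 and 120 min libraries. MRPS12, the counterpart of the S12 protein of the decoding centre, went in WT from 40.0 CPM at 0 min to 143.2 at 120 min (adjusted p = 0.00158). MRPS16 reached 264.2 CPM at 120 min, against 99.4 to 179.6 CPM in the other WT libraries (adjusted p = 0.0046). MRPS35, a small-subunit protein specific to mitochondria, moved the other way until late: 130.5 CPM at 0 min, 104.8 at 60 min, 60.9 at 90 min, 61.2 at 105 min and 114.3 at 120 min in WT (adjusted p = 0.00917). In set1Δ MRPS35 went from 110.4 CPM at 0 min to 61.4 at 105 min, with an adjusted p of 0.159.

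**Figure D2:**
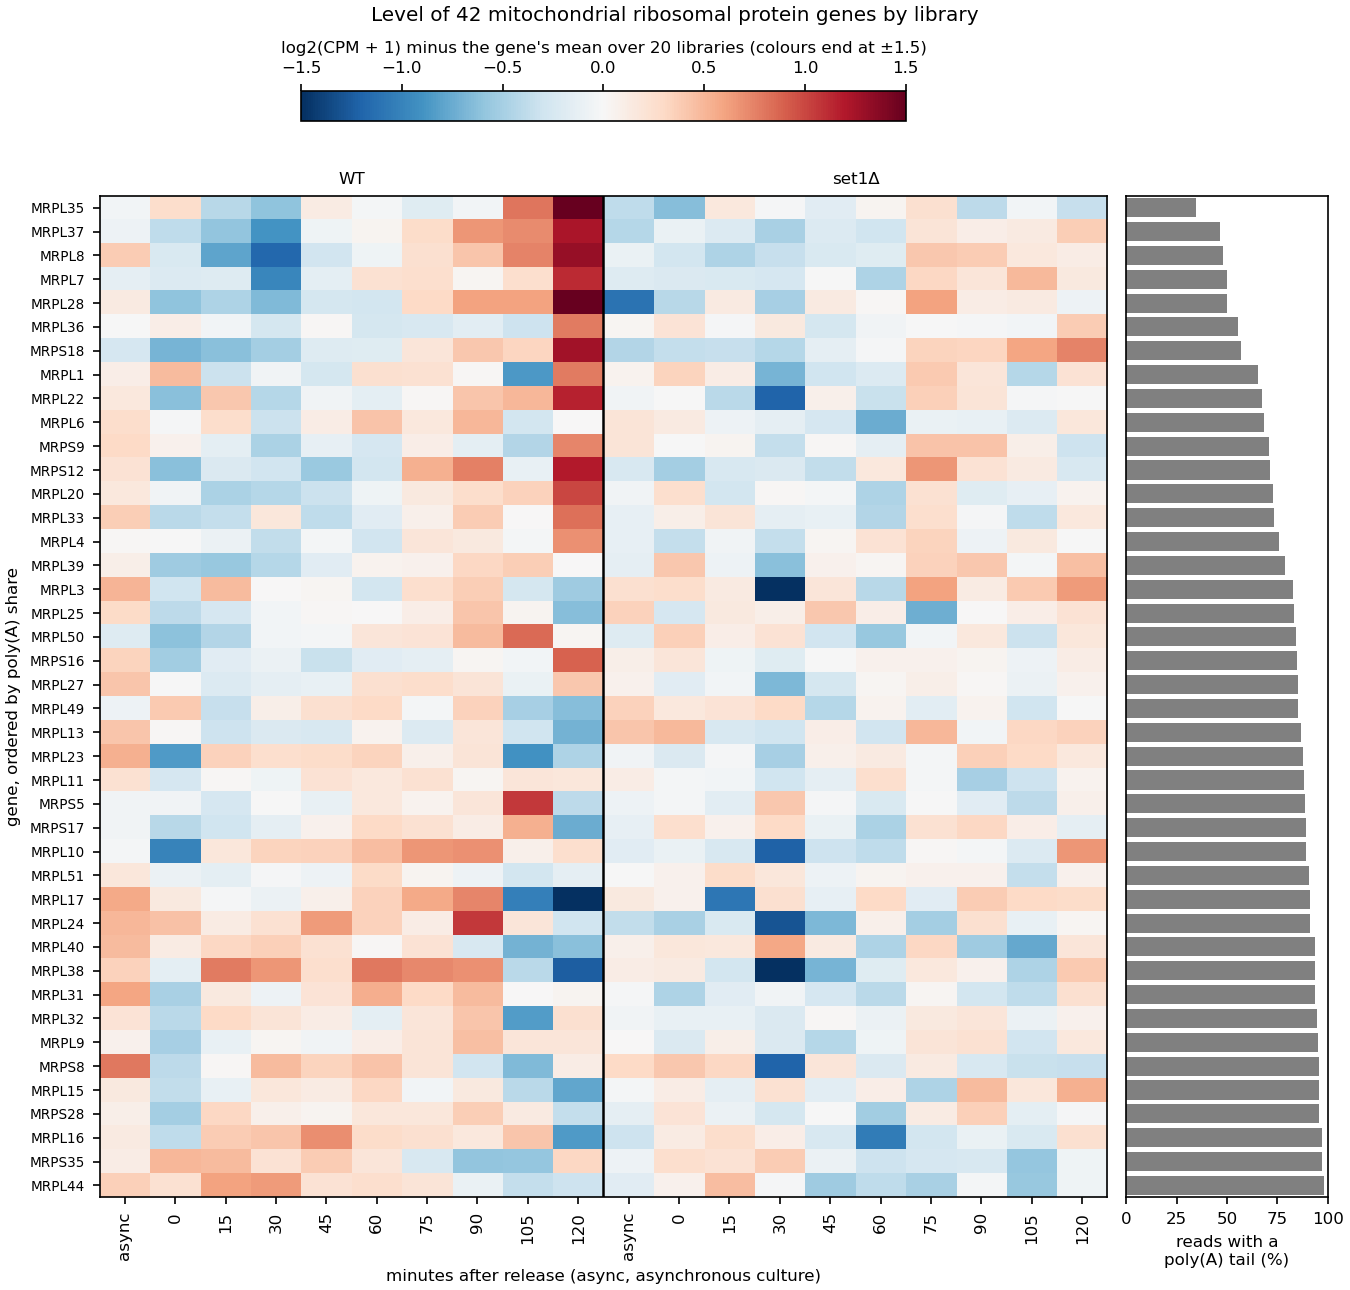
Level of each of the 42 genes (rows) in the 20 libraries (columns, WT left, set1Δ right), as log2(CPM + 1) minus the gene's own mean, beside the share of its reads that carried a poly(A) tail over all libraries (bars, percent). Rows are ordered by that share. Of the 14 genes at the top with a share below 75%, from MRPL35 (34.8%) down, 13 had their highest WT level after release at 120 min. MRPL6 did not, and 3 of the 28 other genes did.

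The late rise went with the share of reads that carried a tail. Over all libraries, 34.8% of the reads of MRPL35 did, 46.6% of those of MRPL37, 47.8% of MRPL8, 50.1% of MRPL28, 55.3% of MRPL36 and 56.8% of MRPS18, against a median of 85.2% over the members and 83.4% over all genes. In WT at 120 min the share was 18.2% for MRPL35, 14.8% for MRPL8 and 16.2% for MRPL28, and at 30 min 68.7%, 90.4% and 91.7%. Of the 14 members with a share below 75%, a limit set after the values were seen, 13 had their highest WT level after release at 120 min. Of the 28 others, 3 did, and 11 of these 28 had their lowest level there. The same split was not made over all genes, so whether these counts are particular to the members was not tested. The share over all libraries includes the reads at 120 min in WT, so it is not independent of the level there. Taken from the set1Δ libraries alone, it put the same 14 genes below 75%, and without the WT libraries at 105 and 120 min it put 12 there, of which 11 were highest at 120 min. The median level of the 14 at 120 min in WT, relative to each gene's own mean, was 1.14 on the log2 scale, and that of the 28 was −0.31. In set1Δ at 120 min the medians were 0.13 and 0.13. Across the 42 genes the share and the range over time in WT had a Spearman rho of −0.42, and the share and the range in set1Δ 0.08, as descriptions over genes measured in the same libraries.

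In counts of tailed reads alone, the median of the 14 genes at 120 min in WT was 0.40 in place of 1.14, and that of the 28 others was 0.02 in place of −0.31, so the first fell and the second turned in sign. Tailed reads were scaled to library sizes of their own, so their CPM have another denominator than those of all reads. The part of that scaling in these shifts was not tested. With tailed reads, MRPL35 went in WT from 50.1 CPM at 0 min to 124.8 at 120 min, MRPL8 from 67.6 to 74.9, MRPL28 from 34.9 to 56.7 and MRPS18 from 39.2 to 86.2. Genes with a share of at least 75% differed in which of the counts rose more. MRPL27 went from 235.4 CPM of tailed reads at 0 min to 374.5 at 120 min in WT, and from 182.4 to 242.0 CPM in all reads. Between the same libraries MRPL39 went from 71.9 to 72.6 CPM of tailed reads, and from 59.3 to 86.6 CPM in all reads. MRPS35, nearly all of whose reads carried a tail (97.3%), was at 183.1 CPM of tailed reads at 0 min, 95.3 at 90 min and 231.5 at 120 min in WT. On these separate scales it ended above its level at 0 min in tailed reads and below it in all reads. Before scaling, MRPS35 had 88 reads at 0 min and 103 at 120 min, of which 84 and 102 were tailed. By the same edgeR spline test on tailed reads, 6 members changed over time in WT, while 21% of all genes did. Of these, MRPL20, MRPL38, MRPL39, MRPL50 and MRPS35 were also called from all reads, and MRPL9 was not. Without the 105 and 120 min libraries, 6 members changed in WT (MRPL28, MRPL37, MRPL8, MRPS12, MRPS18 and MRPS35) and 25% of all genes. MRPS35 was the gene called in WT by each of these 3 fits.

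**Figure D3:**
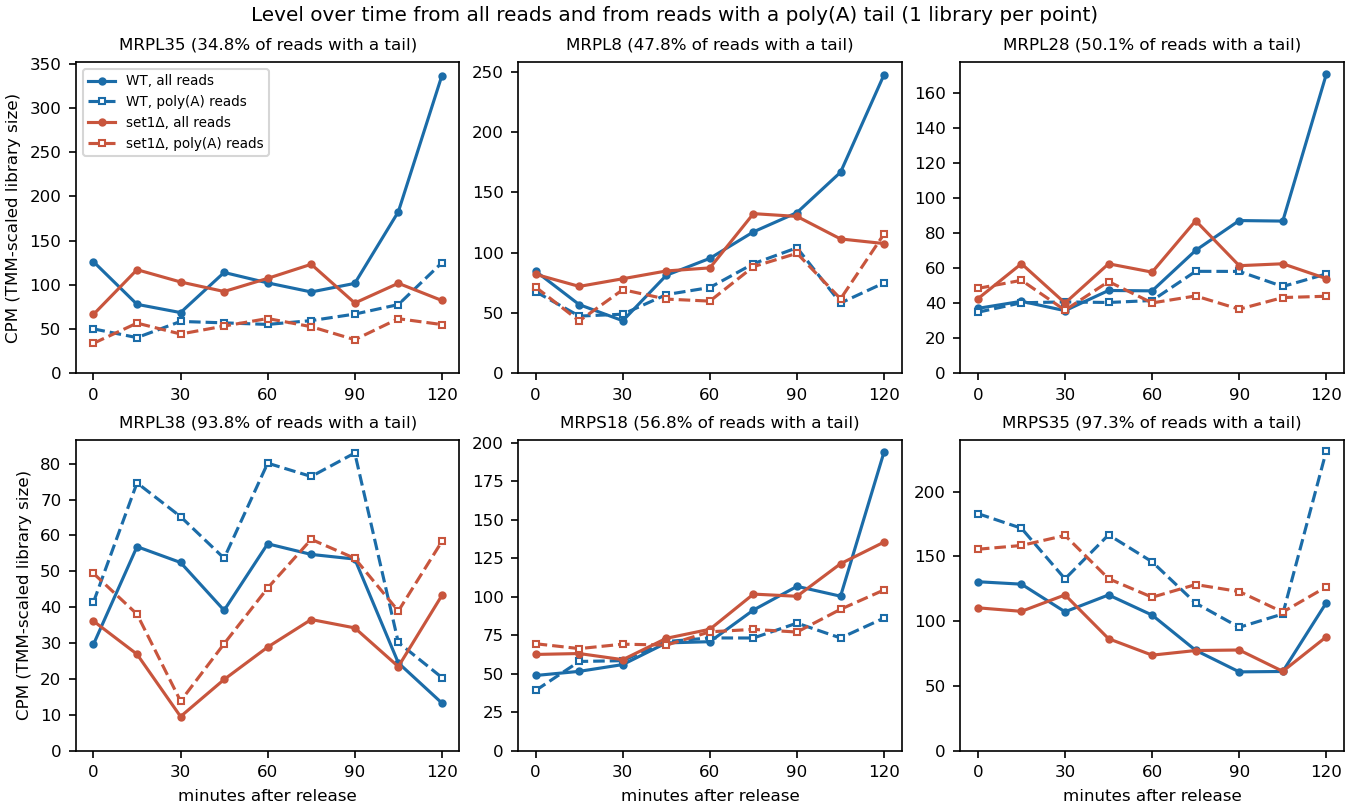
Level over time in CPM (vertical axis) from all reads (filled points, solid lines) and from reads with a poly(A) tail (open squares, dashed lines) in WT (blue) and set1Δ (red), 1 library per point, for 6 genes. For MRPL35, MRPL8, MRPL28 and MRPS18 the solid WT line ends at 336.3, 247.5, 170.9 and 194.2 CPM at 120 min and the dashed WT line at 124.8, 74.9, 56.7 and 86.2 CPM. All reads and tailed reads were scaled to separate library sizes.

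The profiles of 4 members differed between strains, all of the large subunit: MRPL35 (edgeR adjusted p = 0.00154), MRPL38 (0.0112), MRPL28 (0.0256) and MRPL8 (0.0331). The adjusted p stayed below 0.05 in 8, 7, 5 and 3 of the 9 fits that left out a time point, in the same order of genes. Over all genes 12.4% differed, and 4 of 42 is 9.52%. At an unadjusted p below 0.05 the count was 11 members, and the share of all genes was 26.2%. With tailed reads alone the count was 0 members while 2.32% of all genes were called, and without the 105 and 120 min libraries it was 0 while 2.96% were called. MRPL38 had tails on 93.8% of its reads. In WT it was read at 29.7 CPM at 0 min, 56.9 at 15 min, 52.5 at 30 min, 39.1 at 45 min, 57.7 at 60 min, 54.7 at 75 min, 53.4 at 90 min, 24.5 at 105 min and 13.3 at 120 min. In set1Δ it stood at 36.1, 26.9 and 9.55 CPM at 0, 15 and 30 min, the last in the library of the lowest depth, and at 43.3 CPM at 120 min. From tailed reads MRPL38 went in WT from 83.0 CPM at 90 min to 20.4 at 120 min, and its profile difference had an edgeR adjusted p of 0.102.

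The libraries with extreme values were the same for many members. In WT the highest library after release was 120 min for 16 genes and 90 min for 9, and the lowest was 0 min for 11, 120 min for 11, 30 min for 8 and 105 min for 8. In set1Δ the highest was 75 min for 11 genes and 120 min for 10, and the lowest was 30 min for 18 genes. Such counts were not made over all genes, so they describe these libraries and are not shown to be particular to the members. At 30 min in set1Δ the depth was the lowest of all, and MRPL3 had 1.91 CPM there, MRPL10 11.5, MRPS8 11.5 and MRPL22 7.64. These levels rest on 1, 6, 6 and 4 reads, in the same order of genes. The 4 genes, with MRPL38 (5 reads at 30 min), had the largest ranges in set1Δ, from 1.55 for MRPL22 to 3.09 for MRPL3 on the log2 scale. In WT the largest ranges belonged to MRPL8 (2.48), MRPL17 (2.37), MRPL35 (2.28), MRPL28 (2.23) and MRPL37 (2.13). MRPL17 differed from the others of this group in its direction: it fell from 27.1 CPM at 90 min to 7.35 at 105 min and 4.44 at 120 min (edgeR adjusted p = 0.0414, below 0.05 in 3 of the 9 fits that left out a time point), and 91.1% of its reads carried a tail. Those 3 levels of MRPL17 rest on 36, 6 and 4 reads.

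The arrested culture was set beside the asynchronous one, with 1 library on each side in each strain, and the differences are given with no test. In WT the members lay lower at 0 min than in the asynchronous culture, with a median difference of −0.44 in log2(CPM + 1), and 37 of 42 were lower. In set1Δ the median difference was 0.06 and 17 of 42 were lower. Over all genes the medians were −0.03 and −0.01, and 52.0% and 50.6% were lower. The WT library at 0 min held 668987 reads and the asynchronous WT library 2312642. A fall of at least 1.5-fold was seen for 15 members in WT, while 21.5% of all genes fell and 20.3% rose by as much, and no member rose by as much. In set1Δ 1 member fell by at least 1.5-fold and 1 rose, while 10.8% of all genes fell and 7.89% rose. The other mitochondrial ribosomal proteins had medians of −0.31 in WT and 0.02 in set1Δ, with 78.8% and 39.4% lower. The cytosolic ribosomal proteins had medians of −0.52 and 0.11, with 92.7% and 25.5% lower.

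The asynchronous and the 0 min libraries also differed between strains. In the asynchronous cultures the median member lay 0.22 lower in set1Δ than in WT on the log2 scale, and at 0 min 0.21 higher. The same 2 medians were −0.24 and 0.12 for the other mitochondrial ribosomal proteins and −0.21 and 0.40 for the cytosolic ones. Over all genes they were −0.01 and −0.004. The lowest at 0 min over both strains were MRPL23, the counterpart of bacterial L13 (−1.38 in WT, −0.17 in set1Δ), MRPL31 (−1.08 and −0.44) and MRPL25 (−0.69 and −0.60). The highest were MRPS35 (0.38 and 0.33), MRPL1, the counterpart of bacterial L1 (0.37 and 0.28), and MRPL49, that of L21 (0.46 and −0.18). MRPL28 had opposite signs, −0.74 in WT and 0.69 in set1Δ. In tailed reads the medians were −0.45 in WT and 0.04 in set1Δ.

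**Figure D4:**
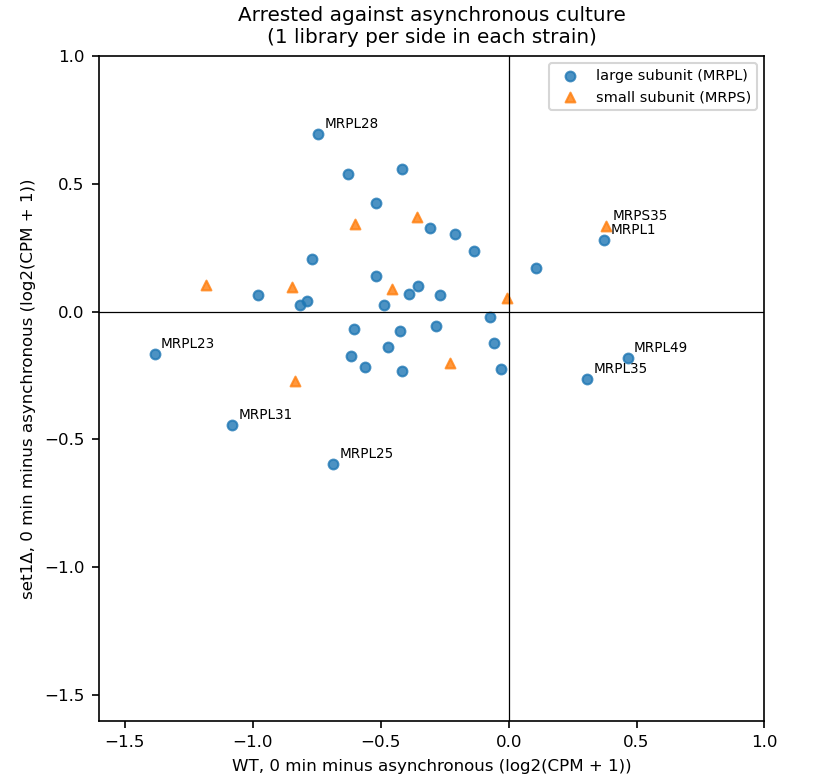
Difference between the culture at 0 min and the asynchronous culture in log2(CPM + 1) for each of the 42 genes, WT on the horizontal axis and set1Δ on the vertical axis, with 1 library per side in each strain; circles mark large-subunit and triangles small-subunit genes. In WT 37 of the 42 points lie below 0 and in set1Δ 17, beside 52.0% and 50.6% of all genes tested.

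Tail lengths of the members were close to those of other genes. Means were taken over libraries with at least 10 tailed reads of the gene, which held for 815 of 840 values. The median over members was 30.4 nt, that over all genes 30.0 nt, that over the other mitochondrial ribosomal proteins 31.7 nt and that over the cytosolic ribosomal proteins 26.7 nt. By library, the median over the members went from 28.5 nt (0 min) to 32.7 nt (120 min) in WT and from 27.3 nt (30 min) to 32.7 nt (75 min) in set1Δ. The median over all genes went from 27.5 to 32.1 nt in WT and from 26.8 to 31.6 nt in set1Δ. The members' median was above that of all genes in 17 of 20 libraries, by at most 2.27 nt.

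Members differed among themselves in tail length by more than they did between strains. Among members with a mean of at least 50 tailed reads per library, MRPL36 had the longest tails, 39.8 ± 4.02 nt in WT and 36.4 ± 3.28 nt in set1Δ (SD, n = 10 each). MRPL13, a mitochondria-specific protein of the large subunit, followed with 38.2 ± 2.93 and 35.8 ± 3.57 nt, and MRPS35 with 37.0 ± 5.05 and 34.5 ± 3.88 nt. MRPS28, below that minimum with a mean of 44.8 tailed reads, averaged 36.5 ± 4.94 nt over 20 libraries. The shortest belonged to MRPS17, the counterpart of bacterial S17, with 22.1 ± 3.19 nt in WT and 23.0 ± 1.79 nt in set1Δ. MRPL37 (26.7 ± 2.68 and 25.1 ± 3.09 nt) and MRPL23 (26.8 ± 4.74 and 25.9 ± 3.29 nt) came next. The values of MRPS17 ranged from 19.2 to 29.3 nt over the 20 libraries and those of MRPL36 from 28.9 to 47.1 nt, so the ranges touched at 1 library of each. The mean tails of the members in WT and in set1Δ had a Pearson r of 0.86 across genes. The median tail was 30.2 nt for members with 1 site and 31.2 nt for those with 2. Across genes, tail length and the distance of the first site from the stop codon had a Spearman rho of 0.19.

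No member's tail differed between strains by limma, among 41 with enough values, while 0.0934% of all genes (4 of 4281) did. At an unadjusted p below 0.05, 2 members were longer and 2 shorter in set1Δ, while 2.87% of all genes were longer and 10.4% shorter. The smallest adjusted p belonged to MRPS5, the counterpart of bacterial S5, with 26.9 ± 2.24 nt in WT and 29.2 ± 1.67 nt in set1Δ, a difference of 2.31 ± 0.76 nt (SE; limma adjusted p = 0.243). The median SE of a difference was 1.42 nt. Fitted differences ran from −3.38 nt (MRPL36) to 2.80 nt (MRPL7), and their median was −0.76 nt, beside −0.66 nt over all genes. Over time, the limma spline test called 0 of 37 members in WT and 0 in set1Δ, while it called 0.281% and 0% of all genes, and 0 members differed in profile. Without adjustment, 8, 1 and 3 members had a p below 0.05, while 22.1%, 10.1% and 9.42% of all genes did. MRPS35 had tails of 30.3 nt at 0 min, 35.5 nt at 60 min and 48.1 nt at 120 min in WT, and of 28.7, 37.2 and 36.4 nt in set1Δ (limma adjusted p over time in WT = 0.137).

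**Figure D5:**
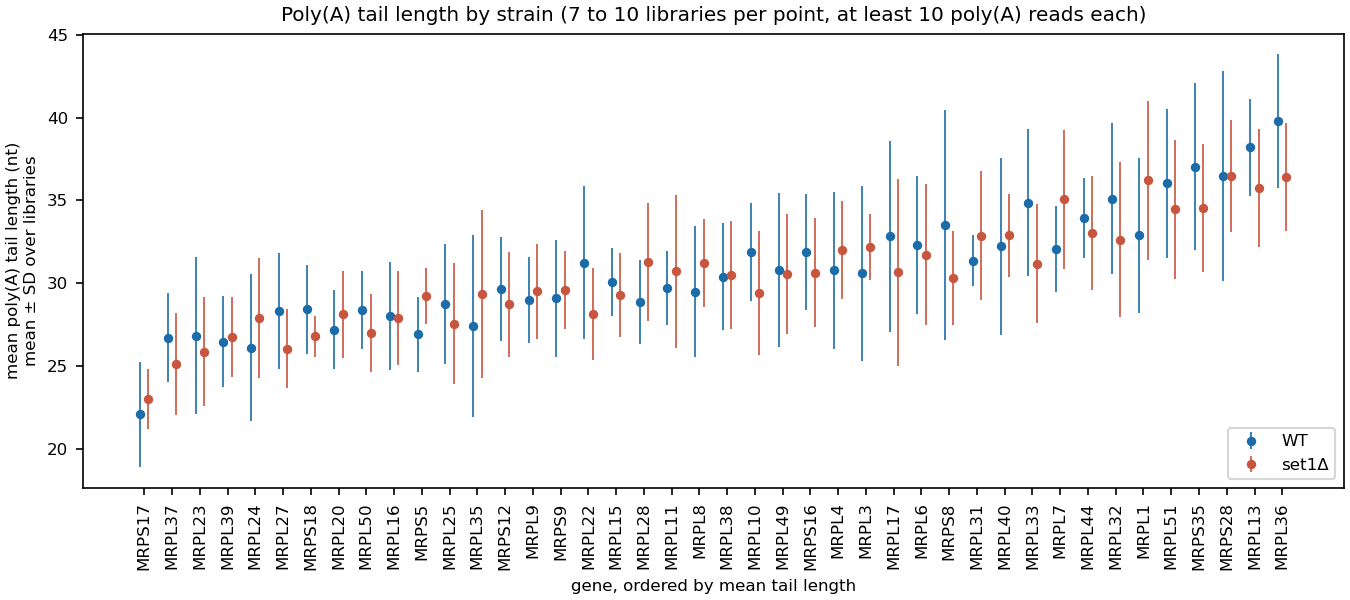
Mean poly(A) tail length in nt (vertical axis) of each of the 42 genes in WT (blue) and set1Δ (red), as mean ± SD over the 7 to 10 libraries with at least 10 tailed reads, ordered by mean tail length. The order runs from MRPS17, near 22.5 nt, to MRPL36, near 38.1 nt, and the bars of the strains overlap for every gene.

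Genes that work with these proteins were counted by the same tests, by which 8.44% of all genes were called higher in set1Δ and 10.5% lower. The message for Puf3 lay at 38.0 ± 7.56 CPM in WT and 29.6 ± 5.46 in set1Δ (SD, n = 10 each), lower at 9 of 10 time points, with a log2 difference of −0.34 ± 0.14 that did not pass (edgeR adjusted p = 0.0955). Among the 9 genes for Puf3 and the tail machinery, PAN2, the catalytic subunit of a deadenylase, was higher (0.57 ± 0.18, edgeR adjusted p = 0.0333) and none was lower. Of the other 33 mitochondrial ribosomal proteins, 5 were lower in set1Δ and 1 was higher. The lower ones included RSM27 (−0.68 ± 0.14, edgeR adjusted p = 0.0026), IMG2 (−0.69 ± 0.16, 0.0067) and MRP17 (−0.66 ± 0.17, 0.0139), and the higher one was EHD3 (0.63 ± 0.17, 0.0177), whose product is also described as a hydrolase of branched-chain amino acid breakdown. Of 23 translation factors and activators of mitochondrial messages, MSS51, which activates translation of the COX1 message, was higher (0.55 ± 0.14, edgeR adjusted p = 0.0096) and none was lower.

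Of 13 mitochondrial tRNA synthetases, MSF1 and MSW1, which charge phenylalanine and tryptophan tRNAs, were higher (0.76 ± 0.20 and 0.50 ± 0.14) and none was lower. Of 10 assembly genes, MRX1 was lower (−0.67 ± 0.19) and none was higher. Of 24 genes of oxidative phosphorylation, COX7 of cytochrome c oxidase and ATP15 of ATP synthase were lower (−0.54 ± 0.13 and −0.37 ± 0.10) and none was higher. For the cytosolic ribosome, 8 of 137 genes were lower and 0 higher. Over time in WT, 108 of these 137 changed (78.8%), against 39.1% of all genes tested. The counts were 16 of the 42 members, 9 of the other 33 mitochondrial ribosomal proteins and 8 of the 24 genes of oxidative phosphorylation. The median range over time in WT was 1.29 on the log2 scale for the cytosolic genes and 1.24 for the members. Their median levels were 1500 and 46.8 CPM, and the part of the level in these counts was not tested. The median share of tailed reads was 77.4% for the cytosolic ribosomal proteins, 87.0% for the other mitochondrial ones and 87.9% for oxidative phosphorylation, and its part in these counts was not tested.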

How the data were processed

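PAT-seq libraries of Saccharomyces cerevisiae, 10 of WT and 10 of set1Δ, were grouped by their labels. The deposited files hold, for each feature and library, the count of all reads, the count of tailed reads and the mean tail length, a score in nt that the authors computed. Bowtie, Bowtie2 2.2.5 and the build sacCer3 are named, without roles, in the submitters' processing notes; the counting tool, annotation and strand setting are not given in the sources used here. Without a known strand setting, reads of MRPL51 and of YPR099C, which overlaps it on the opposite strand by 323 bases, cannot be told apart, and 13 members face the end of a gene on the opposite strand within 300 bases, whose reads may likewise be mixed.

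The 5060 features with a mean of 10 reads or more were tested with edgeR 4.0.16 (TMM, robust quasi-likelihood) in R 4.3.3, the strain difference with a factor for the 10 time points and the change over time with a natural spline of 5 degrees of freedom per strain. Tail lengths from at least 10 poly(A) reads, with at least 8 values per strain, were tested with limma 3.58.1 (robust, trend). Over time these tests used the 18 libraries after release, and 37 members had at least 8 of 9 values. P-values were adjusted by Benjamini-Hochberg over all genes tested and called below 0.05. CPM used TMM-scaled library sizes, of all reads or of the tailed reads alone. The sums of mating-type markers used library sizes without TMM scaling. Steps were tested on simulated data. DESeq2 1.42.0, other filters, scalings, spline degrees and left-out libraries were alternatives.

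Names and coordinates come from the R64 assembly (RefSeq); 5788 of 6532 features matched a symbol, and 149 rows hold several genes. No genome coordinate was given in the deposited tables. Named members are those called in a test (the 8 with the smallest p where more than 12 were called), the 4 highest and 4 lowest by CPM, the 3 longest and 3 shortest tails among members with a mean of at least 50 poly(A) reads, the extremes at arrest and the 5 largest ranges; other lists give up to 4 called genes. Members and lists were chosen with earlier results of these data known, among them those of MRPL24 and MRPL31; MRPL44, MRPL16, MRPL7 and MRPS5 and the genes listed beside a count are named outside the rule, after their values were seen.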

Additional observations from a re-analysis of the deposited data

Results flagged for a closer look

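Of 96 groups of libraries (a named member, a strain, and level or tail), 13 had a highest or lowest library that stood apart by Dixon's test, which chance gives in about 1 of 20 groups of unselected genes. Many of these members were named for a large range or a change over time, so that rate is no background for this count. Of these, 6 were levels in the WT library at 120 min: MRPL36 at 385.2 CPM, MRPL35 at 336.3, MRPS16 at 264.2, MRPS18 at 194.2, MRPL28 at 170.9 and MRPL22 at 43.29. In set1Δ, MRPL27 stood apart at 30 min with 114.6 CPM, MRPL17 at 15 min with 7.022, MRPS12 at 75 min with 98.76 and MRPL10 at 120 min with 44.72. For tails, MRPL37 stood apart in WT at 75 min with 33.33 nt, MRPS12 in WT at 120 min with 37.29 nt and MRPL25 in set1Δ at 60 min with 35.67 nt.

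The strains differed in their course over time, by the edgeR test of that difference, for MRPL35 (adjusted p = 0.00154), MRPL38 (0.0112), MRPL28 (0.0256) and MRPL8 (0.0331). In tailed reads the adjusted p of these genes was 0.587, 0.102, 0.594 and 0.92, and the part of the share of tailed reads in the difference was not tested.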

How the results depend on the processing

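Members called lower in set1Δ numbered 2, and 1 with DESeq2 size factors, without a filter on low counts or without a term for time, 3 in poly(A) reads, 4 with the share of poly(A) reads as a covariate, 6 without 105 and 120 min, and 1 to 6 when 1 time point was left out (6 without 120 min). With that covariate the 4 were MRPL35, MRPL24, MRPL44 and MRPL31. For MRPL35 the log2 difference was −0.43 with the covariate (edgeR adjusted p = 0.00274) and −0.31 without it (edgeR adjusted p = 0.32). Members changing over time in WT numbered 16, and 6 in poly(A) reads, 6 without 105 and 120 min, and 10 to 17 with 1 time point left out, 10 without 75 min or without 120 min. In set1Δ the count of 1 became 0 in poly(A) reads, 2 without 0 min, 2 without 105 and 120 min, and 0 to 3 with 1 time point left out. Profile differences, 4 in number, became 0 in poly(A) reads, 0 without 105 and 120 min, and 1 to 6 with 1 time point left out, 1 without 45 min or without 120 min. Over all genes, 10.5% were lower in set1Δ, and 13.9% without 105 and 120 min. Change over time in WT was called for 39.1% of all genes, for 21% in poly(A) reads and for 25% without 105 and 120 min. Profile differences were called for 12.4%, 2.32% and 2.96% in the same order. For the other alternatives the shares over all genes are not given here. Whether these shifts are particular to the members was not tested, nor was their cause. Leaving out time points after release in the tests over time, counting poly(A) reads at arrest, and taking the share from fewer libraries, were added after seeing the data. Counts of tail calls stayed 0 under every alternative run, and neither the called differences of MRPL24 and MRPL31 nor the arrest medians changed sign. For 13 strain differences that were not called, 40 values under alternatives had the other sign. In poly(A) reads the median level at 120 min in WT of the 28 members with a share of at least 75% turned from −0.31 to 0.02 (log2, against each gene's mean), and MRPS35 turned from lower to higher at 120 than at 0 min. Poly(A) reads were scaled to library sizes of their own, and the part of that scaling in these turns was not tested. Of single-gene values, 723 kept their side of the threshold, 6 came to pass it and 11 ceased to. The strain test pairs the libraries of equal time through its time factor, and without that factor 1 member was lower. By replicate number, no paired analysis was possible because these numbers were given in accession order and mark no shared culture or day. Members had between 1 and 564 reads in a library, which limits the precision of the lowest ones.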
